A study of Mus with 17 samples.

Results

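Ucp1, Cidea, Dio2 and Ppargc1a are 4 genes active in brown fat, and their transcripts were followed here through 17 libraries of mouse abdominal aorta. They were chosen by identifier and not by a threshold on their values, though with earlier results of these data known: ENSMUST00000034146 for Ucp1, ENSMUST00000025404 for Cidea, ENSMUST00000082432 for Dio2 and ENSMUST00000132734 for Ppargc1a. All 4 were listed in every library, among 39614 transcripts common to all of them. The pairing of these identifiers with gene names was given with the choice, since the deposited files carry identifiers alone. Each value therefore belongs to 1 listed transcript and not to the whole gene.

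Neferine, a lotus seed alkaloid, was studied for its effect on vessels during infusion of angiotensin II, a vasoconstrictor peptide that raises blood pressure. All mice were wild-type C57BL/6, a common inbred strain, and were treated for 42 days. The AngII+neferine group (n = 6) received angiotensin II at 500 ng/kg/min and neferine at 1 mg/kg/day. The AngII group (n = 6) received the same dose of angiotensin II with double distilled water, and the Control group (n = 5) saline with double distilled water. The sources used here do not give age, sex, the number of animals behind a sample or the trimming of fat around the vessel. All p-values thus refer to the spread between these samples, which may be technical.

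Brown adipocytes burn fuel to make heat, and the fat around the mouse aorta can contain them, more so around the thoracic than around the abdominal vessel. Ucp1 is the proton carrier of the inner mitochondrial membrane that uncouples respiration from ATP synthesis, and it is the defining marker of thermogenic adipocytes. Cidea is a lipid droplet protein abundant in brown fat. Dio2 is the deiodinase that converts thyroxine into the active thyroid hormone within the cell, and Ppargc1a is a transcriptional coactivator of mitochondrial biogenesis; both also work outside fat, for example in brain and, for Ppargc1a, in heart and skeletal muscle.

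The libraries were measured as a linear abundance signal per transcript whose unit the files do not name, so levels were not compared between genes. The read depth is unknown, and depths relative to each other, estimated from the lowest values, were similar at 0.980 to 1.11. AngII replicate 6 stood apart: its rank correlation with other libraries across transcripts had a median of 0.455, against medians of 0.606 to 0.680 elsewhere, and 16.4% of its transcripts were listed at 0. The share of signal in the 10 highest transcripts was 31.0% in AngII replicate 2 and 29.0% in AngII+neferine replicate 1, against 10.6% to 21.8% in the rest. The AngII+neferine files list other rows than the files of both other groups (41642 against 43752 transcripts), so neferine treatment and file set cannot be told apart.

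Ucp1 varied more between libraries than nearly any other transcript. It was between 4.98 and 404 in AngII+neferine (median 47.0), between 0.0339 and 655 in AngII (median 5.66), and at 107, 5.03, 30.6, 9.37 and 29.9 in Control replicates 1, 2, 4, 5 and 6. AngII replicate 2 was at 655 and AngII+neferine replicate 1 at 404, and the next libraries, AngII+neferine replicate 5 and Control replicate 1, were at 123 and 107. AngII replicate 3, at 0.0339, and AngII replicate 5, at 0.980, held the lowest values. The ranges of the groups thus overlapped. In AngII the overlap at the top rested on replicate 2, as the next AngII library, replicate 6, was at 11.99. The highest value was 19323 times the lowest. The SD of log2(signal + 1) over all libraries was 2.56, and 0.314% of the 29983 tested transcripts had a larger one.

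Cidea placed the libraries in nearly the same order. It was between 22.5 and 376 in AngII+neferine (median 63.7), between 10.2 and 576 in AngII (median 20.4), and at 97.5, 22.7, 62.0, 29.3 and 37.1 in the 5 Control libraries. AngII replicate 2, at 576, and AngII+neferine replicate 1, at 376, were highest for Cidea as they were for Ucp1, followed in both cases by AngII+neferine replicate 5 and Control replicate 1. AngII replicate 3 was lowest for both genes. The SD on the log2(signal + 1) scale was 1.51, exceeded by 4.47% of tested transcripts.

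Dio2 did not share this order. It was between 5.62 and 33.0 in AngII+neferine (median 16.3), between 5.24 and 22.3 in AngII (median 10.8), and at 14.1, 11.03, 16.5, 15.2 and 11.98 in Control. The highest libraries were AngII+neferine replicates 4 and 6, at 33.0 and 24.7, while AngII replicate 2, which held the most Ucp1, was at 11.7. AngII+neferine replicate 5, high in Ucp1 at 123, was at 5.62 and thus next to the lowest. The Control libraries lay close together, and the spread was wider in the other groups: the SD on the log2(signal + 1) scale was 0.933 in AngII+neferine and 0.700 in AngII, against 0.224 in Control, a contrast that was not tested. Over all libraries the SD was 0.702, which 40.2% of tested transcripts exceeded.

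Ppargc1a was low throughout and reached a value of 1, the minimum used for testing, in 7 of the 17 libraries. It was at most 2.66 in AngII+neferine (median 0.717), where replicate 5 was listed at 0, between 0.0190 and 1.56 in AngII (median 0.540), and at 1.17, 1.42, 0.894, 1.4995 and 1.41 in Control. The 2 highest values came from AngII+neferine replicate 1 and AngII replicate 2, the libraries with the most Ucp1. AngII+neferine replicate 5, with much Ucp1 and Cidea, was the library without Ppargc1a signal. The SD of Ppargc1a on the log2(signal + 1) scale was 0.495, and 64.4% of tested transcripts had a larger one. The added 1 compresses such low values. On the linear scale its SD was 19.4% of the mean in Control, 84.4% in AngII and 100% in AngII+neferine.

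**Figure D1:**
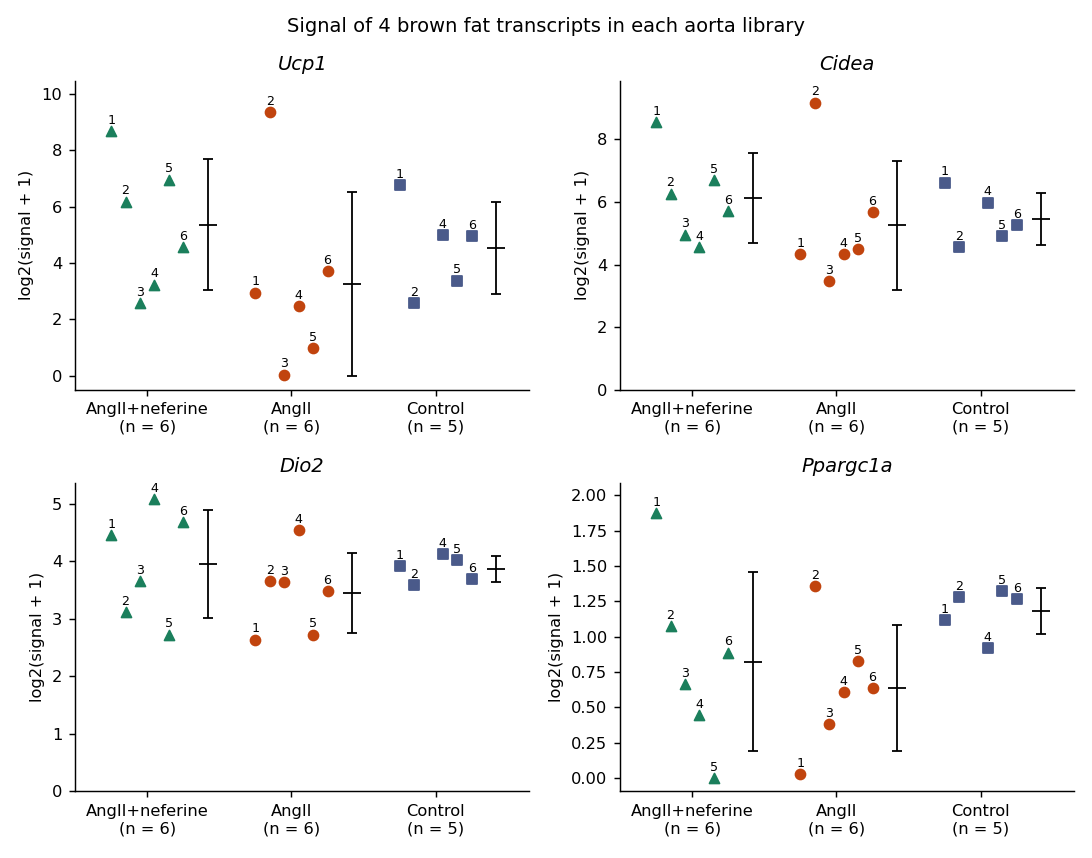
Signal of the 4 transcripts in each library as log2(signal + 1), by group, with the replicate number above each point; the bar to the right of each group is the mean with its SD. Ucp1 and Cidea place the libraries in nearly the same order, with AngII replicate 2 (655 and 576) and AngII+neferine replicate 1 (404 and 376) on top, whereas the Control libraries lie close together for Dio2 (11.03 to 16.5) and Ppargc1a (0.894 to 1.4995).

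The next question was whether the 4 transcripts varied together between libraries. In bulk tissue, fewer cells of a type and less RNA per cell cannot be told apart. Cidea rose with Ucp1 within groups, by 0.59 ± 0.044 (SE) on the log2(signal + 1) scale for each unit of log2(Ucp1 + 1) (limma, adjusted p = 1.86e-05 over 29982 transcripts). Among all transcripts tested it had the smallest p for this relation. Ppargc1a had a slope of 0.087 ± 0.046 (SE; 95% interval -0.010 to 0.185) that did not pass (limma, adjusted p = 0.492). Dio2 had a slope of -0.0092 ± 0.073 (SE; 95% interval -0.164 to 0.145; limma, adjusted p = 0.982).

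Of the 3 other members, 1 was thus called for its slope on Ucp1, where 1.71% of all tested transcripts were: 415 rose with Ucp1 (1.38%) and 97 fell (0.324%). With library totals set equal the split was 204 rising and 121 falling, while Cidea stayed called. Many of these calls needed AngII replicate 2. Without it 4 transcripts were called, Cidea among them with the smallest p (slope 0.54; limma, adjusted p = 0.00935), and without AngII+neferine replicate 1 there were 178. The count was 326 without AngII replicate 3, 777 without AngII replicate 6 and 313 without AngII+neferine replicate 4. With AngII replicate 2 and AngII+neferine replicate 1 both left out limma called 0 transcripts, with 1470 at an unadjusted p under 0.05. The slope of Cidea was then 0.46 (limma, adjusted p = 0.122; unadjusted p = 4.23e-06; the alternatives spanned adjusted p values of 3.86e-06 to 0.128), and its p was the smallest of all transcripts there too.

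The 6 pairs of members were also correlated over libraries. Cidea and Ucp1 had a Pearson r of 0.955 and a Spearman rho of 0.941 on the log2(signal + 1) scale over 17 libraries (permutation tests, two-sided, p = 1e-05 each, the smallest that 100000 resamples can give; adjusted p = 6e-05 over 6 pairs). Within the 11 Control and AngII files r was 0.9501 and rho 0.927 (permutation tests, adjusted p = 0.00018 and 0.0006). Within the 6 AngII+neferine files r was 0.960 and rho 0.943 (exact permutation tests, adjusted p = 0.0167 and 0.1, where the last does not pass). Without AngII replicate 2 and AngII+neferine replicate 1, the libraries farthest from the median of Ucp1, r was 0.939 and rho 0.914 (permutation tests, adjusted p = 6e-05 each). The correlation thus stayed of similar size in both file sets and without its extremes, whereas the slope given above was smaller without those extremes.

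No other pair passed. Ppargc1a had an r of 0.468 with Ucp1 and of 0.529 with Cidea (permutation tests, p = 0.0575 and 0.0289, adjusted p = 0.115 and 0.0867), with a rho of 0.471 and 0.510 (permutation tests, p = 0.0586 and 0.0385, adjusted p = 0.117 and 0.115). Without AngII replicate 2 and AngII+neferine replicate 1 these r fell to 0.150 and 0.174, so they rested on those libraries; within the Control and AngII files they were 0.552 and 0.542, and within the AngII+neferine files 0.482 and 0.631, none of which passed (permutation tests, exact for 6 libraries; adjusted p between 0.163 and 0.678). Without AngII+neferine replicate 5, where Ppargc1a was listed at 0, both passed, with an r of 0.678 and 0.696 (permutation tests, adjusted p = 0.00756 and 0.00699, the lower ends of ranges up to 0.877 over all alternatives). The pair of Ppargc1a and Cidea also passed without Control replicate 2, with an r of 0.591 (permutation test, adjusted p = 0.0463). Dio2 had an r of 0.0872 with Ucp1 and 0.0656 with Cidea (permutation tests, p = 0.739 and 0.804, adjusted p = 0.804 each), with a rho of 0.118 and 0.105 (permutation tests, p = 0.652 and 0.687, adjusted p = 0.687 each). Within the Control and AngII files the r of Dio2 was 0.255 with Ucp1 and 0.170 with Cidea, and within the AngII+neferine files it was -0.286 and -0.195. Without the libraries farthest from the median it was -0.0236 and -0.0965. Ppargc1a and Dio2 had an r of 0.339 and a rho of 0.311 (permutation tests, p = 0.184 and 0.222, adjusted p = 0.276 and 0.333), with an r of 0.394 within the Control and AngII files, 0.339 within the AngII+neferine files and 0.406 without AngII+neferine replicate 4 and AngII replicate 1, which were farthest from the median of Dio2.

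**Figure D2:**
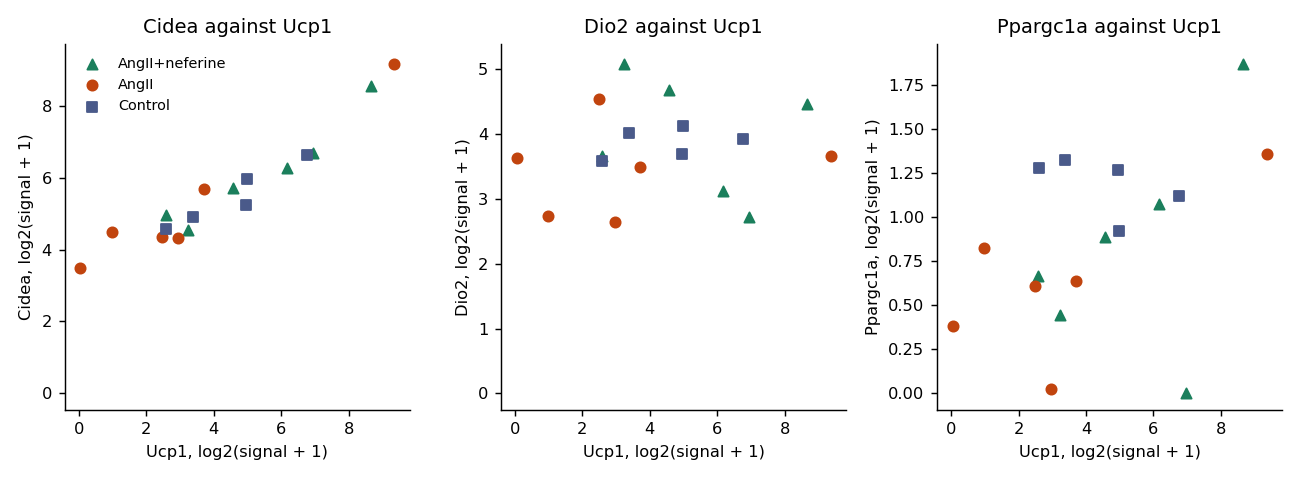
Cidea, Dio2 and Ppargc1a against Ucp1, each as log2(signal + 1), 1 point per library and a symbol per group. Cidea rises with Ucp1 in all 3 groups (r = 0.955 over 17 libraries), Dio2 shows no such order (r = 0.0872), and the r of 0.468 for Ppargc1a drops to 0.150 without the 2 libraries on the far right.

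Cidea did not vanish where Ucp1 did. In AngII replicate 3, with Ucp1 at 0.0339, Cidea was at 10.2, and in AngII replicate 5, with Ucp1 at 0.980, it was at 21.4. A straight line through the values on the deposited scale had an intercept of 19.2 ± 3.09 and a slope of 0.853 ± 0.0161 (SE, n = 17), with residuals of 11.3 (SD). Without AngII replicate 2 and AngII+neferine replicate 1 the intercept was 23.0 ± 3.22 and the slope 0.701 ± 0.0672 (SE, n = 15). The line is a description, and its error assumes an equal spread at low and high values.

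As a measure of likeness, every other tested transcript was ranked by its Spearman rho with each member over the 17 libraries, which share whatever differs between samples in tissue makeup and scaling. Cidea ranked 2 among 29982 transcripts for likeness to Ucp1, whereas Ppargc1a ranked 1537 and Dio2 8523. Ucp1 in turn ranked 6 for likeness to Cidea. A rho of at least 0.8 was reached by 100 transcripts with Ucp1 and by 144 with Cidea, but by 2 with Dio2 and by 1 with Ppargc1a. In the list of likeness to Ppargc1a, Cidea ranked 467 and Ucp1 681.

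**Figure D3:**
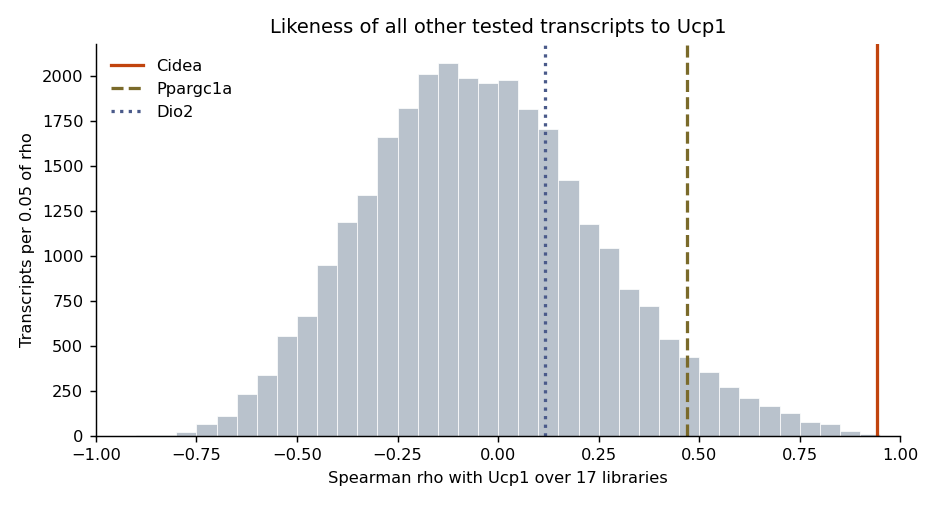
Number of tested transcripts by their Spearman rho with Ucp1 over 17 libraries, in steps of 0.05, with the other 3 members as vertical lines. Cidea (rho 0.941) lies at the far right end of the distribution, Ppargc1a (0.471) on its right flank and Dio2 (0.118) near its middle.

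Among the transcripts without a gene name, ENSMUST00000098594 rose most clearly with Ucp1. Its slope was 0.75 ± 0.063 (SE; limma, adjusted p = 5.00e-05), its rho of 0.951 was the highest of all, and its values lay between 0.614 and 149. ENSMUST00000041053 had a slope of 0.42 ± 0.038 (SE; limma, adjusted p = 6.92e-05) with values between 37.0 and 482. In the other direction ENSMUST00000068135 had a slope of -0.29 ± 0.039 (SE; limma, adjusted p = 0.00160), and its rho of -0.895 with Ucp1 was the lowest of all, and ENSMUST00000050125 had a slope of -0.20 ± 0.032 (SE; limma, adjusted p = 0.00528). All 4 calls were lost without both AngII replicate 2 and AngII+neferine replicate 1 (limma, adjusted p = 0.165, 0.165, 0.728 and 0.914 in the order given), and the 2 falling transcripts also lost theirs without AngII replicate 2 alone (limma, adjusted p = 0.213 and 0.253).

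Ucp1 and Cidea thus varied together, Dio2 was not shown to vary with them, and the relation of Ppargc1a to both depended on which libraries were included. How far any of the 4 measures the amount of brown fat in a sample was not tested. Further brown and white adipocyte markers, and those of muscle, endothelium and other cells, could not be looked up because the identifiers were not paired with names, so their part in any difference was not tested.

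AngII was compared with Control to see whether angiotensin II infusion changed these transcripts. The group means of all 4 were lower in AngII on the log2(signal + 1) scale, and none passed. Ucp1 differed by -1.28 ± 1.42 (SE; 95% interval -4.29 to 1.73; limma, adjusted p = 0.850). Of the 6 AngII libraries, 3 lay below the lowest Control library for Ucp1, 1 lay above the highest and 2 lay within the Control range. Cidea differed by -0.22 ± 0.872 (SE; 95% interval -2.06 to 1.63; limma, adjusted p = 0.967), with 4 AngII libraries below the Control range and 1 above. Libraries outside the range of another group were counted for the members alone, here and below. With no share over all transcripts beside them, these counts only describe the values. Dio2 differed by -0.42 ± 0.408 (SE; 95% interval -1.29 to 0.44; limma, adjusted p = 0.825).

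Ppargc1a came nearest to a difference in this comparison. It averaged 0.623 ± 0.526 (SD, n = 6) in AngII and 1.28 ± 0.248 (SD, n = 5) in Control, a difference of -0.54 ± 0.287 (SE; 95% interval -1.15 to 0.065) on the log2(signal + 1) scale that did not pass (limma, adjusted p = 0.725; unadjusted p = 0.0766). The AngII replicates 1, 3, 4, 5 and 6 all lay below the lowest Control library, and AngII replicate 2 lay above the highest. How many other transcripts were split in this way was not counted. An exact two-sided permutation test of this transcript alone gave an unadjusted p of 0.0303, 1 of 12 such tests and the only one under 0.05; the smallest p this design allows is 0.00216. A value of 1 was reached by 2 AngII+neferine libraries and 1 AngII library, against 4 Control libraries, so Ppargc1a met the testing minimum of 5 libraries only through Control, the group with the highest mean, and no more than its values is read from this difference. Without that filter its adjusted p was 0.761 (limma). The size also depended on the pseudocount: it was -0.78 with 0.5 and -1.30 with 0.1 (limma, adjusted p = 0.730 and 0.770). Limma called 0 of 29983 transcripts in this comparison (0%), while 7.25% had an unadjusted p under 0.05, so that 0 of 4 members at either level is not set apart from the background. The exact rank sum test called 0 as well. With 462 arrangements of the libraries, its smallest p passes the adjustment only if very many transcripts reach it at once. Its 0 thus adds nothing.

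The size of these differences depended on single libraries of both groups. Without AngII replicate 2 the other 5 AngII libraries lay between 0.0339 and 11.99, and Ucp1 differed from Control by -2.50 and Cidea by -1.003 on the log2(signal + 1) scale, neither of which passed (limma, adjusted p = 0.669 and 0.755). The unadjusted p was then 0.0377 for Ucp1 and 0.137 for Cidea (limma), where 2143 of 29419 transcripts were under 0.05. Without AngII replicate 3 the difference of Ucp1 was -0.64 and that of Cidea 0.14 (limma, adjusted p = 0.931 and 0.977), and without AngII replicate 5 that of Ucp1 was -0.82 (limma, adjusted p = 0.900). Without Control replicate 1, the Control library with the most Ucp1, the difference of Ucp1 was -0.72 and that of Cidea 0.070 (limma, adjusted p = 0.922 and 0.989). The difference of Dio2 was -0.26 without AngII replicate 1, -0.28 without AngII replicate 5 and -0.64 without AngII replicate 4. Over all alternatives the adjusted p of limma lay between 0.543 and 0.931 for Ucp1 and between 0.534 and 0.994 for Cidea.

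AngII+neferine was compared with AngII to see whether the addition of neferine changed these transcripts. All 4 means were higher with neferine, and none passed. Ucp1 differed by 2.11 ± 1.36 on the log2(signal + 1) scale (SE; 95% interval -0.76 to 4.98; limma, adjusted p = 0.952). Cidea differed by 0.87 ± 0.832 (SE; 95% interval -0.88 to 2.63; limma, adjusted p = 0.957). These intervals leave room for a large rise and for a smaller fall. Dio2 differed by 0.51 ± 0.389 (SE; 95% interval -0.32 to 1.33; limma, adjusted p = 0.952), with 2 AngII+neferine libraries above the highest AngII library. Ppargc1a differed by 0.18 ± 0.273 (SE; 95% interval -0.39 to 0.76; limma, adjusted p = 0.973). For Ucp1 and Cidea all 6 AngII+neferine libraries lay within the range of the AngII libraries. Limma called 0 of 29983 transcripts here (0%), with 5.22% at an unadjusted p under 0.05 and none of the 4 members among them. The exact rank sum test, limited to 924 arrangements of the libraries, also called 0, which adds nothing. Without AngII replicate 2 the difference of Ucp1 was 3.33 on the log2(signal + 1) scale (limma, adjusted p = 0.557; the alternatives spanned 0.552 to 1.00), and without AngII+neferine replicate 1 that of Ppargc1a was -0.026. The difference of Cidea was 1.66 without AngII replicate 2, 0.52 without AngII replicate 3 and 0.39 without AngII+neferine replicate 1 (limma, adjusted p = 0.612, 0.982 and 0.958 in that order). That of Dio2 was 0.28 without AngII+neferine replicate 4 (limma, adjusted p = 0.989). The absence of members under an unadjusted p of 0.05 held in the main fit and depended on AngII replicate 2. Without that library the unadjusted p was 0.00623 for Ucp1 and 0.0159 for Cidea (limma), where 2114 of 29419 transcripts were under 0.05.

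AngII+neferine was compared with Control to see what remained of a difference from saline. Ucp1 differed by 0.83 ± 1.42 on the log2(signal + 1) scale (SE; 95% interval -2.18 to 3.84; limma, adjusted p = 0.904). Cidea differed by 0.66 ± 0.872 (SE; 95% interval -1.19 to 2.50; limma, adjusted p = 0.872) and Dio2 by 0.084 ± 0.408 (SE; 95% interval -0.78 to 0.95; limma, adjusted p = 0.972). Ppargc1a averaged 0.926 ± 0.930 (SD, n = 6) in AngII+neferine and 1.28 ± 0.248 (SD, n = 5) in Control, a difference of -0.36 ± 0.287 (SE; 95% interval -0.96 to 0.25; limma, adjusted p = 0.771), with 4 AngII+neferine libraries below the Control range and 1 above it. Without AngII+neferine replicate 1 the difference was 0.17 for Ucp1, 0.17 for Cidea and -0.57 for Ppargc1a (limma, adjusted p = 0.991, 0.985 and 0.568 in that order). With other single libraries left out that of Ucp1 lay between 0.35 (Control replicate 2) and 1.39 (Control replicate 1), that of Cidea was 0.43 without Control replicate 2, and that of Ppargc1a was -0.19 without AngII+neferine replicate 5. For Ppargc1a it was -0.54 with pseudocount 0.5 and -0.997 with pseudocount 0.1 (limma, adjusted p = 0.761 and 0.766). Here too Ppargc1a met the testing minimum only through Control, the group with the highest mean, so no more than its values is read from this difference. Without that filter its adjusted p was 0.840 (limma). In the main fit none of the 4 members was called, where 0.0367% of all tested transcripts were, and none had an unadjusted p under 0.05, where 8.74% did. Without AngII+neferine replicate 1 the unadjusted p of Ppargc1a was 0.0369 (limma), where 2382 of 29511 transcripts were under 0.05. This comparison shares its Control libraries with the first and its AngII+neferine libraries with the second.

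**Figure D4:**
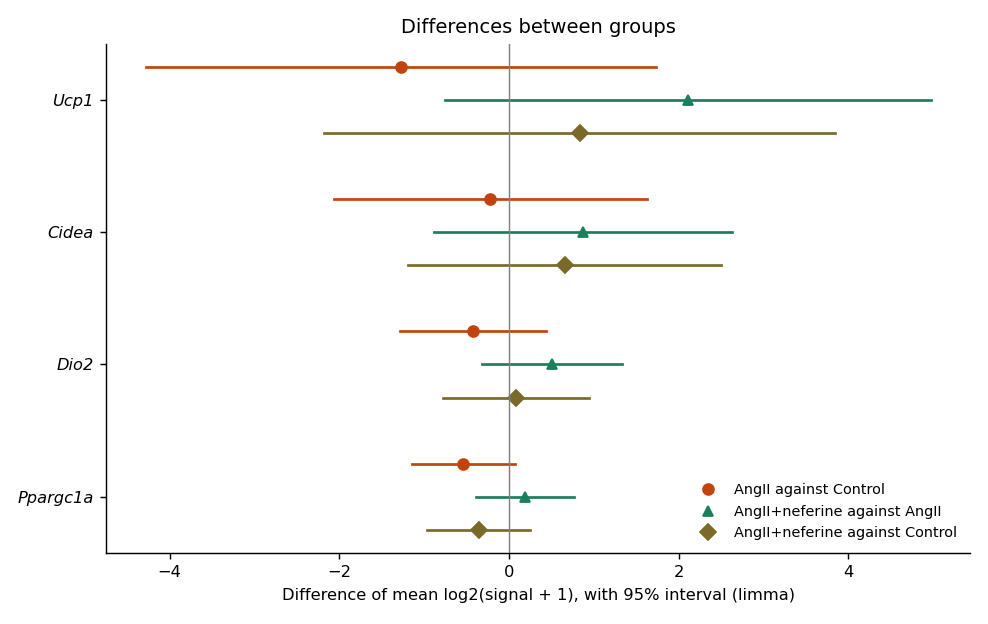
Difference of group means in log2(signal + 1) for the 4 transcripts in the 3 comparisons, as points with 95% intervals from limma. All 12 intervals include 0, and they are widest for Ucp1 (-4.29 to 1.73 for AngII against Control) and narrowest for Ppargc1a. The added 1 compresses the low values of Ppargc1a, so its narrow intervals do not mark a steadier transcript.

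The groups accounted for 12.9% of the variance of log2(signal + 1) of Ucp1 over the 17 libraries, 6.76% of that of Cidea, 11.04% of that of Dio2 and 20.8% of that of Ppargc1a. With 2 of 16 degrees of freedom between groups, arithmetic alone gives 12.5%. Most of the spread of all 4 transcripts lay between libraries of the same group.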

How the data were processed

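Per the labels' protocols, total RNA of each sample was taken up in Trizol, depleted of ribosomal RNA and turned into Illumina libraries. The authors deposited a linear signal per transcript, never negative, for which the file headers name no unit. The sources used here do not state the aligner, quantifier or genome build. The submitters' processing notes name only limma. Other transcripts of the same genes, including assembled ones, could not be assigned. Of the identifiers, 0 matched the RefSeq gene table (GRCm38.p6) that was at hand, so the planned pathway list, cell type markers and promoter motifs were not used.

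Groups and replicate numbers came from the sample titles. The main test was limma 3.58.1 (R 4.3.3; trended, robust moderation) on log2(signal + 1), with all 17 libraries in a fit with a term per group; the values are not counts, so the limma branch of the design applied. A transcript was tested if 5 or more libraries reached a value of 1, which left 29983 of 39614; all 4 members passed, Ppargc1a only with its Control libraries. Calls used a Benjamini-Hochberg adjusted p under 0.05 over all transcripts tested; differences on this scale understate those of low transcripts. The slope on Ucp1 added log2(Ucp1 + 1) to the group terms. Correlations were tested by permutation in Python 3.11.15. The code was tested on simulated data. The unnamed transcripts in the text are, for each direction of slope, the 2 with the smallest p and a mean of at least 1. Alternatives were other pseudocounts, filters, scalings, moderation, library weights, a replicate block and libraries left out. Libraries were checked for duplicates: no pair had equal values above 0 in more than 0.414% of transcripts. The members, taken by identifier, and the lists were chosen with earlier results of these data known.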

Additional observations from a re-analysis of the deposited data

Results flagged for a closer look

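In 5 of 12 groups of linear values of the 4 members, 1 library lay far from the others of its group. Its gap to the next library exceeded 0.625 of the group's range for 6 libraries, or 0.71 for 5. These cutoffs give about 5% of groups by chance only if values are normally distributed. The SD of Ucp1 was 113% of its mean in Control and 234% in AngII, so the 5% is no guide for these linear values. The rule was not applied to other transcripts, so whether such gaps are usual in these libraries was not tested. For Ucp1 the gap was 0.982 of the range for AngII replicate 2, 0.704 for AngII+neferine replicate 1 and 0.75 for Control replicate 1. For Cidea it was 0.929 for AngII replicate 2 and 0.774 for AngII+neferine replicate 1. The 5 cases come from 3 libraries and from transcripts that vary together. On the log2(signal + 1) scale, on which the tests were made, 0 of 12 groups passed the cutoff. AngII replicate 2 came close to it there, with a gap of 0.608 of the range for Ucp1 and 0.614 for Cidea. In the same AngII replicate 2 and AngII+neferine replicate 1 the 10 highest transcripts took 31.0% and 29.0% of the signal; their part in these values was not tested.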

How the results depend on the processing

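None of the 12 member comparisons between groups passed under any alternative (356 adjusted p of limma, 0.334 to 1.00). Signs changed in some. With the replicate block Cidea differed by 0.075 between AngII and Control. With the Ucp1 level as a covariate, chosen after seeing the data, Cidea differed by 0.53 there and by -0.37 between AngII+neferine and AngII, where Ppargc1a differed by -0.00078. Without AngII replicate 2 and AngII+neferine replicate 1, also chosen after seeing the data, and without these and AngII replicate 6, Dio2 differed by -0.017 between AngII+neferine and Control. With single libraries left out, Cidea lay between -1.003 and 0.14 (AngII against Control), Dio2 between -0.14 and 0.33 (AngII+neferine against Control) and Ppargc1a between -0.026 and 0.35 (AngII+neferine against AngII). The difference of Ppargc1a of -0.54 between AngII and Control was under 0.05 unadjusted in the exact permutation test and not in the main limma fit. Among the limma alternatives the unadjusted p was under 0.05 in some and above it in others. It was 0.0332 with total scaling, 0.0279 with library weights, 0.0278 without AngII replicate 2 and 0.0374 without AngII+neferine replicate 1 (limma). The permutation result was 1 of 12 such tests. Ppargc1a met the testing minimum only through its Control libraries, so nothing is read from this difference.

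The slope of Cidea on Ucp1 kept its call in 27 of 29 alternatives and lost it without AngII replicate 2 and AngII+neferine replicate 1 (0.46) and without these and AngII replicate 6 (0.43); fewer samples and a narrower range of Ucp1 are part of both. The slope of Ppargc1a was -0.043 and -0.058 in the same fits. The slope of Dio2 was 0.013 with median-ratio scaling, 0.032 with the replicate block, 0.024 without group terms and between -0.052 and 0.024 with single libraries left out. Over all alternatives it lay between -0.153 and 0.032 and was never called (limma, lowest adjusted p = 0.774). The correlation of Cidea with Ucp1 missed the threshold in the rank test of the 6 AngII+neferine files (rho 0.943). The r of Dio2 with Ucp1 was -0.286 in the AngII+neferine files (rho -0.371), -0.0236 without the libraries farthest from the median and -0.047 to 0.207 with single libraries left out. Its r with Cidea was -0.195 (rho -0.543), -0.0965 and -0.078 to 0.181. With single libraries left out, which was also chosen after seeing the data, Ppargc1a had an r of 0.314 to 0.678 with Ucp1 and 0.362 to 0.696 with Cidea.

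ENSMUST00000068135 and ENSMUST00000050125 lost their calls with the replicate block too. Counts of called transcripts depended on the libraries and the fit, and the cause was not tested. For the slope on Ucp1 they were 192 with pseudocount 0.1, 325 with total scaling (204 rising and 121 falling, against 415 and 97), 334 without group terms, 11 with the replicate block, 0 without AngII replicate 2 and AngII+neferine replicate 1 with or without AngII replicate 6, and 4 to 777 with single libraries left out. For AngII against Control they were 6 with library weights, 4 without those 3 libraries, 7 in a fit of these groups alone and 0 to 12 with single libraries left out. For AngII+neferine against AngII they were 3, 13, 2 and 0 to 12 in the same order. For AngII+neferine against Control they were 63, 110, 34 and 0 to 35 in that order. There were also 42 without AngII replicate 2 and AngII+neferine replicate 1, 4 without a filter, 2 with total scaling, 22 with the Ucp1 covariate, and 0 with the replicate block. The exact rank sum test called 0 there, but its 462 arrangements of the libraries limit its smallest p, so this 0 adds nothing. Replicate numbers did not pair the samples: the deviations of same-numbered libraries correlated between -0.147 and 0.0641, above 0.1 in 0 of 16 pairs, and 2 of 16 libraries matched their own number best.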
